A study of Mus musculus with 6 samples.

Results

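Hox genes of paralog groups 4 to 7 were described in lung tissue of E11.5 mouse embryos. They were the probe sets whose only gene symbol in the array's annotation was Hoxa, Hoxb, Hoxc or Hoxd followed by 4, 5, 6 or 7. This gave 15 probe sets of 11 genes (Hoxa4, Hoxa5, Hoxa6, Hoxa7, Hoxb4, Hoxb5, Hoxb6, Hoxb7, Hoxc4, Hoxc5 and Hoxc6), out of 12422 probe sets of 8251 named genes on the array. A further 3 probe sets carried a gene of these groups together with another Hox gene and were left out. The group was chosen by the difference that some of its genes showed between the regions compared here, so the members' values in that comparison are a description and no p-value is given for them. RNA came from 2 dissected regions of the same stage. The branching region held tissue from the lungs of the right and left side, and the non-branching one joined both main bronchi to part of the trachea. There were 3 arrays for each region, with 1 RNA sample on each. The labels give no strain, genotype or treatment, and they do not say whether the 3 samples of a region came from separate embryos, so the spread between them may be technical.

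Hox genes encode transcription factors with a homeodomain and lie in 4 clusters named a to d. Genes of the same number in different clusters are paralogs. Within a cluster the genes with low numbers lie at the end expressed most anteriorly along the body axis, and those with high numbers at the end expressed most posteriorly. Groups 4 to 7 fall in the middle of this order, and in the embryonic lung several of them are known from the mesenchyme around the airways. Hoxa5 is known to be needed in the mouse for normal trachea and lung development, and Hoxb5 has been linked to airway branching. Hox proteins bind DNA together with TALE homeodomain cofactors of the Pbx and Meis families. Retinoic acid is a known activator of Hox genes in the embryo.

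Signals are the deposited intensities, on a linear scale in arbitrary units. The level called background here is 147, the 95th percentile of 114 values of controls that match bacterial and yeast genes. Of the 15 member probe sets, 9 were above background on all 6 arrays and 2 on none. Array medians ran from 212 to 229. Non-branching replicate 2 stood apart, with a median of 78.8 over the control probe sets against 19.8 to 40.7 on the other arrays. A difference is the mean log2 signal of branching minus that of non-branching, with intensities under 16 raised to 16, and carries the standard error (SE) of limma's fit over the whole array.

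In these data Hoxb5, Hoxb6, Hoxb4 and Hoxa5 had more signal on every branching array than on any non-branching array, while Hoxb7, Hoxc4, Hoxc5, Hoxa6 and Hoxc6 overlapped between the regions. The differences were 2.90 ± 0.41 for Hoxb5, 1.82 ± 0.26 for Hoxb6, 1.03 ± 0.23 for Hoxb4 and 0.76 ± 0.13 for Hoxa5 (SE, n = 3 arrays per region). Of the 15 probe sets, 13 passed the filter on dim signal and entered the fit. Among these 13, the regions did not overlap for 4 with branching higher, beside 9.79% of all probe sets tested, and for 5 in either direction, beside 20.8%. At an adjusted p under 0.05 the fit called 3 of the 13 (Hoxb5, Hoxb6 and Hoxa5), all higher in branching. Over the whole array it called 0.902% of probe sets higher in branching and 2.03% in either direction. The median difference was 0.34 over the 13 probe sets and -0.0046 over all 9316 tested. Of the 6 omissions of a single array, Hoxb5 was called in 6, Hoxb6 in 5 (not without branching replicate 3) and Hoxa5 in 1 (without non-branching replicate 1). No member was called without the variance trend, and without the filter on dim signal Hoxa5 was the 1 called. Since the members were chosen with this contrast in view, nothing is read from these counts.

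**Figure D1:**
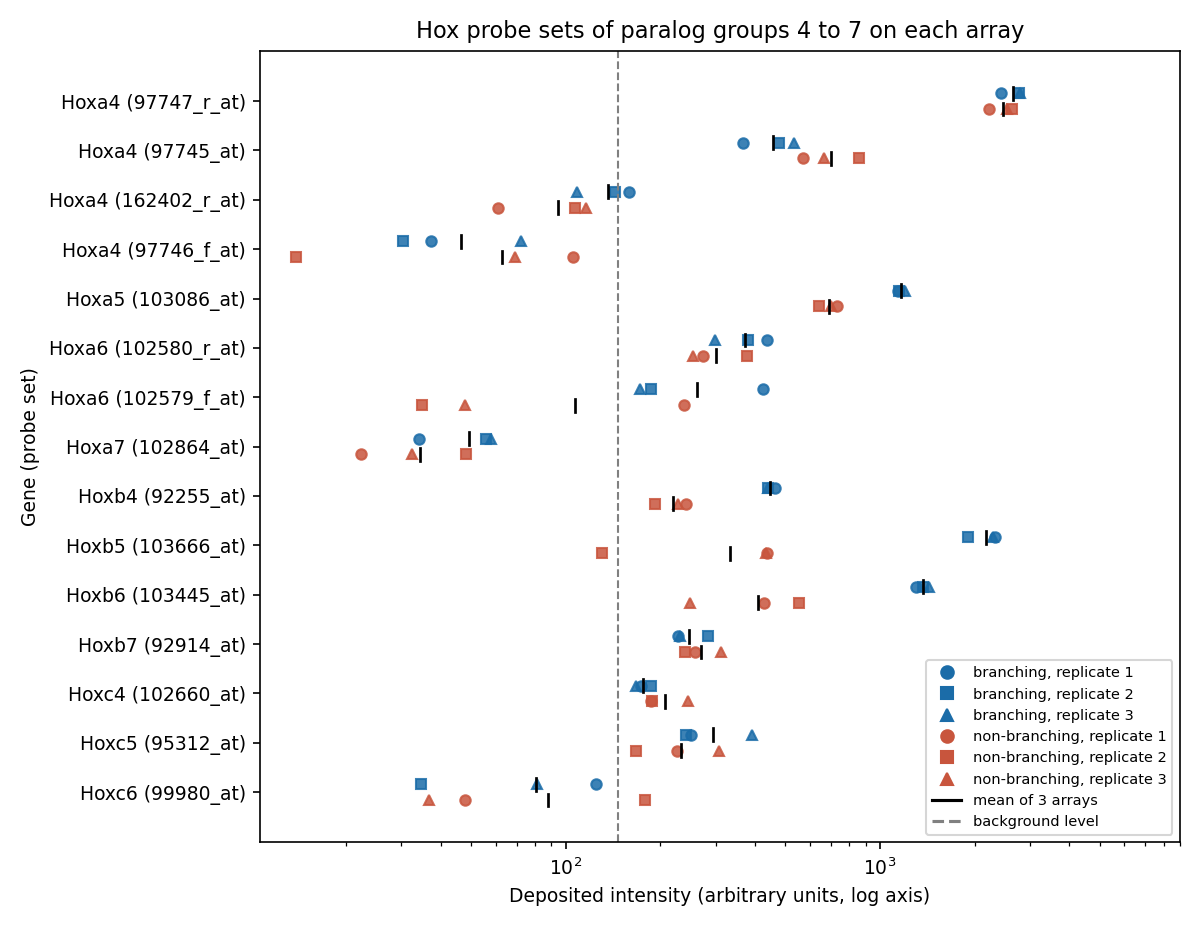
Deposited intensity (arbitrary units, log axis) of each of the 15 member probe sets on each of the 6 arrays, with branching arrays in blue, non-branching arrays in red, a marker shape for each replicate number, a black bar at the mean of 3 arrays and a dashed line at the background level of 147. The regions are well apart for Hoxb5, Hoxb6, Hoxb4 and Hoxa5, and the 4 Hoxa4 probe sets spread over very different levels.

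Among the genes of group 5, Hoxb5 (Entrez gene 15413) gave 2328.5, 1902 and 2293 on branching replicates 1, 2 and 3. On the non-branching arrays it gave 436.7, 130.0 and 434.1. Non-branching replicate 2 was thus far below the other non-branching arrays and below background, and the lowest branching value was 4.36-fold the highest non-branching value. Mean signals were 2175 ± 237 (SD, n = 3) in branching and 334 ± 176 in non-branching, which on the log2 scale is a 7.44-fold difference. Without non-branching replicate 2 the difference was 2.31, or 4.97-fold.

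Hoxa5 (Entrez gene 15402) is the paralog of Hoxb5 in the a cluster. Its signals were 1139, 1153 and 1204 on the branching arrays and 731, 638 and 696.5 on the non-branching arrays. Its non-branching arrays lay closer together than those of the other member probe sets, with a coefficient of variation of 6.85%. Mean signals of 1165 ± 34.4 and 689 ± 47.2 (SD, n = 3) made a 1.69-fold difference. The lowest branching array was 1.56-fold the highest non-branching one, so the regions were apart although the difference was far smaller than that of Hoxb5. Hoxc5 (Entrez gene 15424), the third paralog, gave 250, 242 and 391 in branching and 226, 167 and 307 in non-branching. Its regions overlapped, with a difference of 0.34 ± 0.34. The 3 paralogs of group 5 therefore had differences of unlike size.

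Among the genes of group 6, Hoxb6 (Entrez gene 15414), the neighbour of Hoxb5 in the b cluster, gave 1307, 1372 and 1437 on the branching arrays. Its non-branching signals were 428, 551 and 249. The branching arrays lay close together and the non-branching arrays did not, with mean signals of 1372 ± 64.8 and 409 ± 152 (SD, n = 3), a 3.53-fold difference on the log2 scale. Within non-branching, Hoxb6 was highest on replicate 2, the array on which Hoxb5 was lowest. Without non-branching replicate 3, where Hoxb6 was lowest, its difference was 1.497. Hoxa6 (Entrez gene 15403) was read by a pair of probe sets of less specific design. The brighter one gave 438, 379.5 and 299 in branching and 273, 379 and 253 in non-branching, which overlapped, with a difference of 0.31 ± 0.27. The dimmer one gave 423.5, 187.5 and 173 in branching and 238, 34.8 and 47.8 in non-branching. There a single array of each region was well above the other 2, and the regions overlapped. Its difference was 1.70 ± 0.73, was not called, and ran from 1.17 without non-branching replicate 2 to 2.55 without non-branching replicate 1. Its non-branching mean of 107 lies under background, where signals have no reliable size. Hoxc6 (Entrez gene 15425) had a mean below background in both regions and was above it on non-branching replicate 2 alone, at 179.

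Among the genes of group 4, Hoxb4 (Entrez gene 15412) gave 462, 441 and 440 on the branching arrays and 241, 192 and 227 on the non-branching arrays. Mean signals were 448 ± 12.6 and 220.0 ± 25.2 (SD, n = 3), a 2.04-fold difference, and the lowest branching array was 1.83-fold the highest non-branching one. The fit over the array did not call Hoxb4, although its regions were apart by more than those of Hoxa5, which it did call. Its paralog Hoxc4 (Entrez gene 15423) gave 174, 186.5 and 167 in branching and 186.5, 188 and 244 in non-branching. These lay close to background and overlapped, with a difference of -0.22 ± 0.31.

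Hoxa4 (Entrez gene 15401) was read by 4 probe sets that did not give the same picture. The probe set of gene-specific design gave 367, 476 and 531 in branching and 568, 860 and 663 in non-branching. It was thus lower on every branching array than on any non-branching array, with a difference of -0.60 ± 0.22, although the nearest arrays of the regions were only 1.07-fold apart. The brightest probe set, of less specific design, gave 2421, 2772 and 2782.5 in branching and 2223, 2634 and 2533 in non-branching. These overlapped, and the difference was 0.11 ± 0.11. The other two probe sets of Hoxa4 had mean signals below background in both regions. The array therefore gave no single direction for Hoxa4.

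In group 7, Hoxb7 (Entrez gene 15415) gave 228, 283 and 231 on the branching arrays and 259, 239 and 313 on the non-branching arrays. The regions overlapped, and the difference was -0.13 ± 0.27. Hoxa7 (Entrez gene 15404) was at or below 57.9 on all 6 arrays and so never above background. Hoxb7, the only gene of group 7 with signal above background, was thus not apart between the regions, in contrast to its neighbour Hoxb6 in the b cluster. Hoxa7 was too dim to be compared.

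The members can be set beside the other Hox genes along each cluster. In the b cluster the difference was 0.97 ± 0.28 for Hoxb1 (adjusted p = 0.141), which specifies hindbrain segments, and -0.07 ± 0.30 for Hoxb3 (adjusted p = 0.947). It was larger for Hoxb4 and largest for Hoxb5, smaller again for Hoxb6, and within its standard error for Hoxb7 and, at 0.10 ± 0.17, for Hoxb8 (adjusted p = 0.844). Hoxb1 gave 362, 390 and 326 on the branching arrays and 189.5, 145 and 226 on the non-branching arrays, so its regions did not overlap either. In the a cluster Hoxa2 (-0.26 ± 0.17, adjusted p = 0.543) and Hoxa3 (-0.34 ± 0.29, adjusted p = 0.669) had differences below 0, on the other side of 0 from Hoxa5. Of 20 other Hox genes measured, 10 were at background on all 6 arrays. Of the 11 that entered the fit, limma called 0, with 1 (Hoxb1) at an unadjusted p under 0.05, and their median difference was -0.14.

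**Figure D2:**
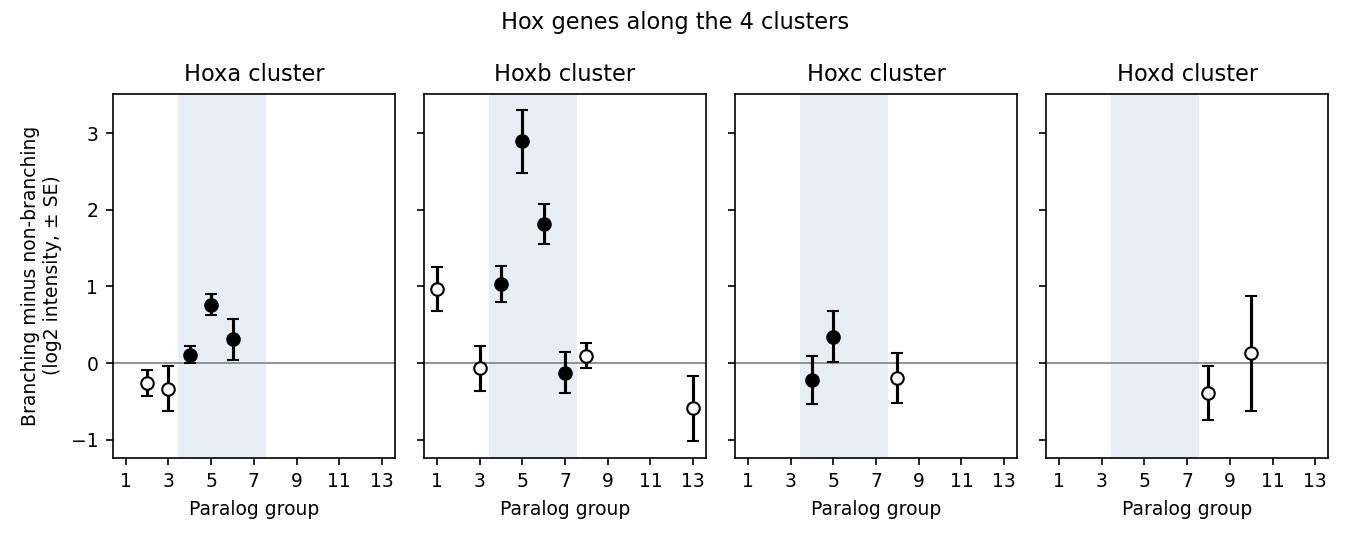
Branching minus non-branching difference (log2 intensity, ± SE of the limma fit, n = 3 arrays per region) of Hox genes by paralog group in each of the 4 clusters, for the brightest probe set of each gene with a mean above background in at least 1 region. Filled points in the shaded band are the genes of groups 4 to 7 and open points are other Hox genes; Hoxb5 stands highest at 2.90, between Hoxb4 at 1.03 and Hoxb6 at 1.82.

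Sequence upstream of the start was available in the RefSeq table for 5 of the 11 genes (Hoxa5, Hoxa6, Hoxa7, Hoxb4 and Hoxc4), in build GRCm38.p6. The 250 bases before the start are shown for Hoxa5 and Hoxb4, whose regions were apart, and for Hoxc4, the paralog of Hoxb4 whose regions overlapped. They lie at chr6:52204588-52204837 on the minus strand for Hoxa5, chr11:96318017-96318266 on the plus strand for Hoxb4 and chr15:103034145-103034394 on the plus strand for Hoxc4. Capitals mark matches on either strand to the Hox core TAAT and to AGGTCA, the half-site of retinoic acid receptors.
Hoxa5: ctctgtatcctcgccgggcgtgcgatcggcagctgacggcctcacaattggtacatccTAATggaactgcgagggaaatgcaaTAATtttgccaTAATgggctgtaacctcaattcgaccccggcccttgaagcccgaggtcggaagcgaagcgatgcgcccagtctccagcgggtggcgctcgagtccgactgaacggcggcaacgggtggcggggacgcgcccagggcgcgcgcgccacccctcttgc
Hoxb4: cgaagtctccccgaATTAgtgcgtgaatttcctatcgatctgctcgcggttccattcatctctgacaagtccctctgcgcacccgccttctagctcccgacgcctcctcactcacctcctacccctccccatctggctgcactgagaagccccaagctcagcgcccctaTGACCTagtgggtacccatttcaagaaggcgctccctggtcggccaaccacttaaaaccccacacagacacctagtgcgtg
Hoxc4: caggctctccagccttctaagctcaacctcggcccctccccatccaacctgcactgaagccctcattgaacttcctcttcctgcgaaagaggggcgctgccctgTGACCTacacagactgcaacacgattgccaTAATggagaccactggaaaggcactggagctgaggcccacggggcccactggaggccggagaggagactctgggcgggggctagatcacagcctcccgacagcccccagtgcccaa
Hoxa5 held 3 matches to TAAT and no AGGTCA, and Hoxb4 and Hoxc4 held 1 of each. TAAT was in 54.9% and AGGTCA in 14.02% of all 32851 windows of this length in the table. Neither TGATNNAT, the joint Pbx and Hox motif (7.68% of windows), nor TGACAG, the Meis motif (15.9%), occurred in any of the 5 member windows. The TAAT and AGGTCA matches did not overlap each other in the 3 windows shown. Hoxb4 and Hoxc4 thus carried the same count of marked matches. A match is only a description of the letters in this window.

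The genes nearest to Hoxb5 in profile were found by the root mean square difference of log2 signals over the 6 arrays, with each gene centred on its own mean. They were Celsr1, which encodes a cadherin of planar cell polarity, at 0.37, the vesicle fusion gene Stx3 at 0.45, Mybl2, a transcription factor gene of dividing cells, at 0.50, the surfactant gene Sftpc at 0.50, the leucine zipper factor gene Cebpb at 0.58 and the guidance ligand gene Sema3a at 0.65. No Hox gene of another paralog group was among these 6. The nearest member was Hoxb6 at 1.02, followed by Hoxb4 at 1.06 and Hoxa5 at 1.19. Sftpc, a marker of the epithelium at the airway tips, gave 794, 826 and 650 in branching and 286, 74.5 and 320.5 in non-branching. Like Hoxb5 it was lowest on non-branching replicate 2, where both were below background. Sftpc was named for its nearness to Hoxb5 over these same arrays, so nothing is read from this shared low value. Celsr1, Stx3 and Sema3a were below background on all 3 non-branching arrays, so part of their profile lies where signals have no reliable order. Stx3 averaged 146 in branching as well, just under background. Mybl2 gave 167, 103 and 127 in non-branching, so 1 of these 3 arrays was above background.

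**Figure D3:**
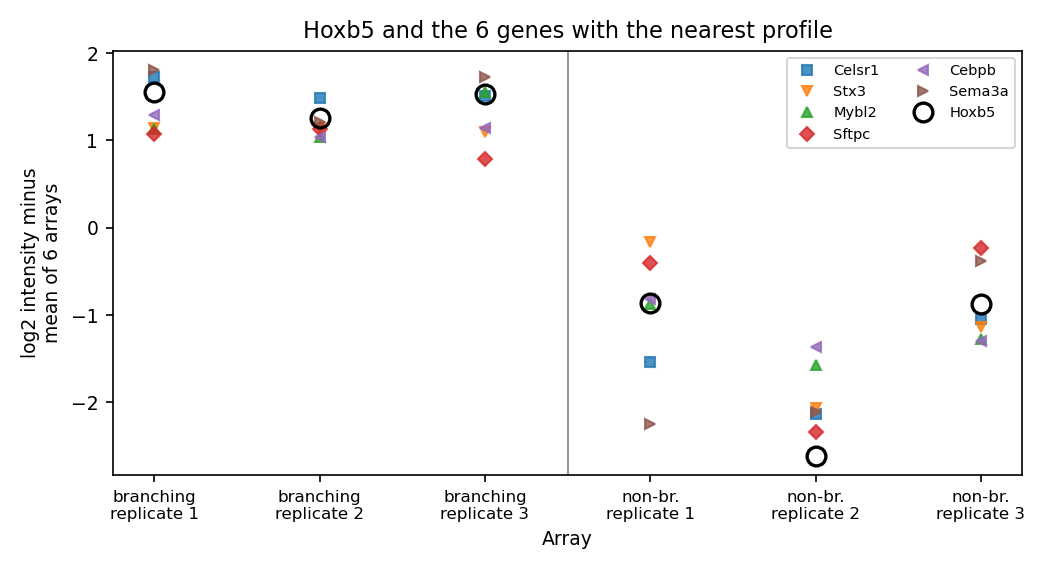
Log2 intensity minus the mean of the 6 arrays (values below 16 set to 16) on each array for Hoxb5 (black circles) and the 6 genes with the nearest profile (coloured markers). On non-branching replicate 2, where Hoxb5 gave 130.0, Sftpc gave 74.5.

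Among the genes through which Hox proteins act or are controlled, 2 passed the test with 1 probe set per gene. Both were among the 11 tested of the retinoic acid pathway. Over the whole array 2.32% of genes passed with 1 probe set per gene. No such share is given for the counts at an unadjusted p under 0.05 in any list of genes or markers. Nothing is therefore read from those counts. Of 6 TALE cofactors tested limma called 0, with 1 at an unadjusted p under 0.05. This was Pbx3, which averaged 2776 ± 576 (SD, n = 3) on the branching and 4185 ± 834 on the non-branching arrays, a difference of -0.60 ± 0.18 (adjusted p = 0.157). The other probe sets of Pbx3 had differences of -0.53 ± 0.12 (adjusted p = 0.0578) and -0.78 ± 0.12 (adjusted p = 0.0142), so 1 of 3 passed. All 3 differences had the opposite sign to those of Hoxb4, Hoxb5, Hoxb6 and Hoxa5. None of the other 5 passed, and the median difference of the list was 0.03. Pknox1 had a difference of 0.44 ± 0.22 (adjusted p = 0.413), with the branching arrays above all non-branching arrays. Meis2 had a difference of -0.44 ± 0.34 (adjusted p = 0.619), with overlapping regions. Pbx2 (0.22 ± 0.19), Meis3 (0.07 ± 0.34) and Meis1 (-0.02 ± 0.25) overlapped between the regions as well.

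Of 11 genes of the retinoic acid pathway tested, 2 fell in branching, none rose and 9 did not pass, with a median difference of -0.16 and 5 genes at an unadjusted p under 0.05 in limma. The 2 that fell were Rarg, a retinoic acid receptor gene, at least 3.81-fold lower (adjusted p = 0.00552), and Crabp1, which encodes a binding protein for retinoic acid, at least 3.72-fold lower (adjusted p = 0.00584). Both are lower bounds because the branching arrays were below background. Stra6, which encodes a membrane receptor for vitamin A uptake, averaged 137 in branching against 457 in non-branching (-1.98 ± 0.49, adjusted p = 0.0819) and did not pass, though its regions did not overlap. The receptor gene Rara averaged 111 against 297 (-1.62 ± 0.55, adjusted p = 0.209), with overlapping regions, and did not pass. The branching means of Stra6 and Rara also lie under background, with 1 branching array of each above it. Aldh1a2, which encodes the main enzyme of embryonic retinoic acid synthesis, averaged 445.5 in branching against 480.5 in non-branching (-0.09 ± 0.23, adjusted p = 0.902).

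Of 15 Polycomb genes tested, which keep Hox genes silent, limma called 0, with 3 at an unadjusted p under 0.05 and a median difference of 0.11. The smallest p was that of Jarid2, with means of 1079 in branching and 1488 in non-branching (-0.46 ± 0.12, adjusted p = 0.0923). The others of these 3, Ezh2 (0.30 ± 0.11, adjusted p = 0.245) and Pcgf2 (0.90 ± 0.36, adjusted p = 0.287), had the opposite sign. Both were higher on every branching array than on any non-branching array. The list thus had no single direction. Of 6 genes of the Trithorax group and of the demethylases that remove the Polycomb mark, limma called 0, with 2 at an unadjusted p under 0.05 and a median of -0.04. Kmt2a, which maintains Hox expression, had 524 ± 44.7 in branching and 811 ± 29.4 in non-branching (-0.63 ± 0.16, adjusted p = 0.0816). Its other probe set had a difference of -0.28 ± 0.16 (adjusted p = 0.464). The other of these 2 genes, Ash2l, had the opposite sign (0.43 ± 0.17, adjusted p = 0.281). It was higher on every branching array than on any non-branching array. Of the Cdx genes and hindbrain activators of Hox genes, 4 of 5 were at background on all arrays and 0 of 2 tested were called, with 0 at an unadjusted p under 0.05. Egr2, the other one, had means of 72.7 and 109, below background in both regions.

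**Figure D4:**
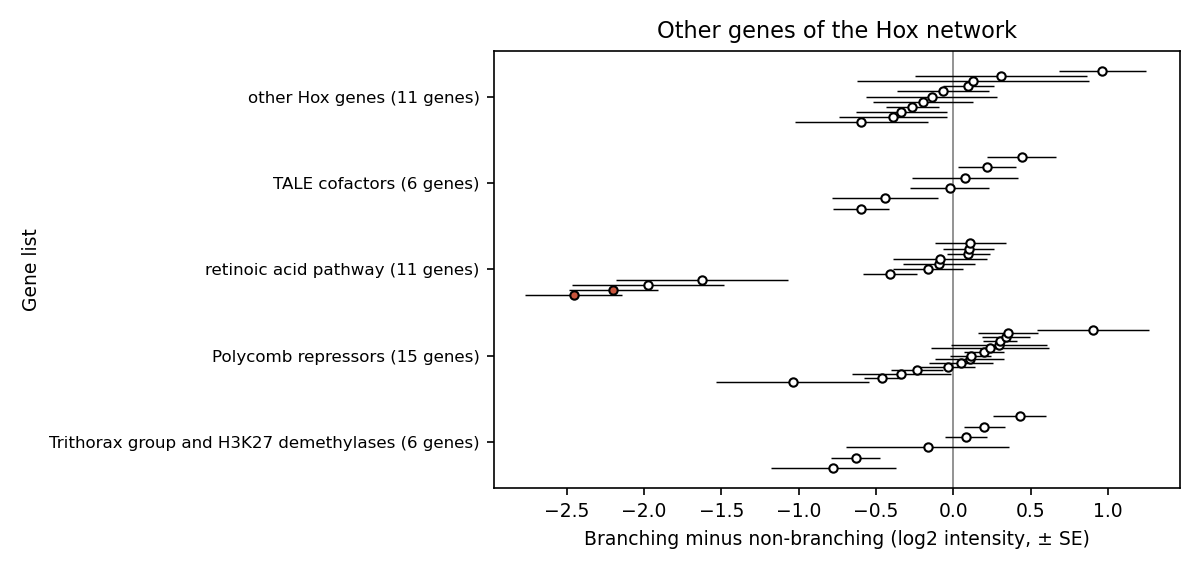
Branching minus non-branching difference (log2 intensity, ± SE of the limma fit, n = 3 arrays per region) of each tested gene in 5 lists of the Hox network, with 1 probe set per gene. Filled red points, Rarg and Crabp1, had an adjusted p under 0.05, and open points did not.

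Markers of cell types also differed between the regions. In bulk tissue, fewer cells of a type and less RNA per cell cannot be told apart. Of 12 mesenchymal markers tested, 5 were called lower in branching and none higher, with a median difference of -0.76. Their summed signal was 18784 to 19213 on the branching arrays and 33829.5 to 34849 on the non-branching arrays. The other 7 of these 12 markers did not pass. Hoxb5, Hoxb6, Hoxb4 and Hoxa5 had more signal in the region where this sum was lower, and no cause is read from this. Of 13 epithelial markers tested limma called 0, with 3 at an unadjusted p under 0.05 (median 0.10), and the summed signal of the 14 measured was 6660 to 7610 in branching and 5789.5 to 6621 in non-branching. Called lower in branching were 5 of 6 smooth muscle, 2 of 7 cardiac, 1 of 10 endothelial and 1 of 10 neuronal and neural crest markers. Called higher were 3 of 8 red blood cell markers. Of 7 leukocyte and 3 hepatic and gut markers tested, limma called 0, with 0 at an unadjusted p under 0.05. The leukocyte markers Ptprc, Cd53 and Lyz2, the neuronal and neural crest markers Nefl, Elavl3, Elavl4 and Ret, the cardiac marker Myh6 and the hepatic and gut markers Apoa1, Hnf4a, Fabp1, Cdx2 and Vil1 were at background on all 6 arrays. The part of these cell types in the Hox differences was not tested.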

How the data were processed

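Intensities of 12488 probe sets on 6 single-sample arrays, 3 per region as grouped by the sample titles, were used as deposited by the authors; the sources used here do not say how they were computed. Arrays have no read depth, and their small number bounds the precision. Controls (66) were removed, intensities under 16 were raised to 16, and the values were put on the log2 scale. After removal of the dimmest 25%, limma 3.58.1 (R 4.3.3) was run on 9316 probe sets (lmFit with region as the factor, eBayes with a variance trend, two-sided, Benjamini-Hochberg adjustment over all of them, called under 0.05). The same steps were tested on simulated data. Of 12422 probe sets, 10833 had 1 gene symbol, 396 several and 1193 none; all 11 member genes matched RefSeq by identifier. Where several probe sets read 1 gene, the brightest stood for it, except for members, whose probe sets are all given. The f and r designs of probe sets are the less specific ones.

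The members, lists and tests were chosen with earlier results of these data known. Named genes were all members, in each list up to 3 called genes by size of change or, with none called, the 1 of lowest p, and the 6 genes nearest to Hoxb5. Hoxb3, Hoxb8, Hoxa2, Hoxa3, Meis1, Meis2, Meis3, Pbx2, Pknox1, Stra6, Rara, Aldh1a2, Ezh2, Pcgf2, Ash2l and the markers were named in addition, after their values were seen. A fold given as at least N compares mean log2 signals with the dim region raised to background. Alternatives tried were a replicate block, normalization by quantiles, median centring, no filter or the dimmer 50% left out, a floor of 64, 16 added in place of a floor, no variance trend and each array left out.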

Additional observations from a re-analysis of the deposited data

How the results depend on the processing

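The filter, the variance trend and the replicate block leave a gene's difference as it is by construction. Across the 14 alternatives the difference ran from 2.31 to 3.19 for Hoxb5, 1.497 to 2.07 for Hoxb6, 0.94 to 1.10 for Hoxb4 and 0.71 to 0.81 for Hoxa5. The difference of the dimmer Hoxa6 probe set ran from 1.17 to 2.55 and that of Hoxc6, dim throughout, from -0.39 to 0.56. The count of members called depended more on the fit. Without the filter on dim probe sets limma called 100 probe sets in all and 1 member (Hoxa5). Without the variance trend it called 22 and 0 members. With the dimmer 50% left out it called 4 members, Hoxb4 added. Leaving out each array in turn gave 61 to 150 probe sets and 1 to 3 members. Hoxb5 was called in each omission, Hoxb6 in each but that of branching replicate 3, and Hoxa5 only without non-branching replicate 1. With the replicate number as a block limma called 114 probe sets and 2 members (Hoxb5 and Hoxb6). Same-numbered arrays deviated from their region means with correlations of -0.0023, 0.013 and -0.015 over probe sets. With 3 arrays per region these correlations cannot decide whether the numbers pair the samples, and the labels do not say. The calls of Rarg and Crabp1 held in all 14 alternatives. The cause of these changes in counts was not tested. Signals below background, as for Hoxa7 and Hoxc6, limit what can be said of those genes.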

Other observations

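The spread of the Hox signals between the arrays of each region is described here. The SD of the log2 signal over 3 arrays was larger in non-branching than in branching for all 15 member probe sets, beside 49.6% of all probe sets tested. Of these 15, 2 were never above background and were not tested. Read as the coefficient of variation of the linear signal it was again larger in non-branching for 15 of 15. For the members that entered the fit this was 13 of 13, beside 49.6% of all probe sets tested. It was also larger for 9 of 9 that were above background on all arrays. The median coefficient of variation of the 13 tested members was 12.5% in branching and 22.4% in non-branching, against 19.0% in each region over all probe sets tested. On the linear scale the SD itself was larger in non-branching for 10 of 15. No share over the whole array is given for the 9 of 9 and the 10 of 15. With 3 arrays per region each SD is imprecise, the 15 probe sets share arrays and some share a gene, and no test was made. The log2 SD and the coefficient of variation can also depend on the level of signal. Of the 13 tested members, 10 had a difference above 0, so less signal in non-branching. The 49.6% shares were not matched for this, and the part of signal level in the spread was not tested.

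The non-branching arrays did not rank alike for the Hox genes. Hoxb5, Hoxb4 and Hoxa5 were lowest on replicate 2, at 130.0, 192 and 638, and so was Hoxb1 at 145. Hoxb6 and the gene-specific probe set of Hoxa4 were highest on that array, at 551 and 860. Its control probe sets had the highest median, 78.8, and the part of this array in the differences of Hoxb5 is given by the value without it, 2.31 in place of 2.90.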
